A study of Mus musculus with 12 samples.

Results

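The 8 genes described here encode secreted suppressive proteins of regulatory T (Treg) cells, together with the receptor chain that reads one of them: Il10, Ebi3, Il12a, Areg, Fgl2, Gzmb, Penk and Il10ra. They were chosen by name, with earlier results of these data known. All 8 were present among the 55453 gene symbols of the count table. The RNA came from cells sorted by flow cytometry on CD4 and Foxp3 from C57BL/6 mice, and lysed at once in TRIzol. CNS4 is a distal enhancer of Foxp3, a gene on chromosome X, and the series asks how it serves Treg cell formation in the thymus. The 12 libraries formed 4 groups of 3, which were male CNS4 knockout, male CNS4 floxed (called wild type in the labels), female heterozygotes for the knockout allele and female heterozygotes for the floxed allele. The mice were age-matched, with no age stated in the sources used here, and neither a Cre driver, the allele in use in the heterozygous cells, nor the number of animals behind a library was given. P-values therefore measure the spread between these libraries, which may be technical. The organ was not spelled out, though the titles carry the letters Thy. Since every female was heterozygous, differences between the sexes here cannot be told apart from differences in zygosity.

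Treg cells restrain other immune cells partly through what they secrete, and Foxp3 is the factor that defines them. IL-10, the product of Il10, acts through a receptor made of the ligand-binding chain Il10ra and the shared chain Il10rb, and signals through the kinases Jak1 and Tyk2 to the transcription factor Stat3. Ebi3 and Il12a encode the subunits of IL-35, and each also pairs with other partners, Il12a with Il12b in IL-12 and Ebi3 with Il27 in IL-27. Fgl2 encodes a secreted fibrinogen-like protein that binds inhibitory Fc receptors. Areg encodes amphiregulin, a ligand of the epidermal growth factor receptor that Treg cells use in tissue repair. Gzmb encodes granzyme B, a protease of cytotoxic granules, and Penk encodes proenkephalin, the precursor of enkephalin opioid peptides.

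Each library held 12423335 to 30244505 reads in genes (median 14596845). Between 95.8 and 97.2% of the reads in protein-coding genes lay in genes annotated on the plus strand, and the low counts of minus-strand genes do not give their expression. Il10 (chromosome 1), Ebi3 (chromosome 17), Il12a (chromosome 3), Areg and Fgl2 (both chromosome 5) lie on the plus strand, and Gzmb (chromosome 14), Penk (chromosome 4) and Il10ra (chromosome 9) on the minus strand. Female knockout libraries 1 and 3 stood apart from the rest, with scores of 80.2 and 74.5 on a first principal component that held 56.5% of the variance, against 27.2 or less in every other library. Foxp3 itself was at 685 and 825 CPM (read counts scaled to library size by the TMM method) in these libraries, 1824 CPM in female knockout library 2, and 2582 to 2658 CPM in female floxed libraries. In males Foxp3 was at 1462 to 2037 CPM in knockout and 2227 to 2675 CPM in floxed libraries. Female knockout libraries 1 and 3 also had the highest share of mitochondrial reads, 4.04 and 3.40% against 1.17 to 2.77% in the others. Their correlations of level with GC content across genes were the most negative, -0.354 and -0.264. For the genes described in full, female results are given with and without the knockout libraries that decide them.

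Of the 8 genes, 3 were too low to judge. A gene was called so where it failed edgeR's low-count filter or had under 10 counts in 6 or more of the 12 libraries. Gzmb had 7 counts in all 12 libraries together and failed the filter. Il12a and Il10ra each passed the filter but had under 10 counts in 7 of the 12 libraries. Penk and Areg could be tested, with 4 to 42 and 2 to 154 counts per library. Il10 had 55 to 428, Ebi3 239 to 2242 and Fgl2 1054 to 9867 counts.

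Per kilobase of exon, the order of the plus-strand genes with enough counts to judge was Fgl2, Ebi3, Il10 and Areg. Fgl2 averaged 56.2 ± 40.1 CPM per kilobase and Ebi3 37.2 ± 21.1 CPM per kilobase (SD over all 12 libraries, n = 12). These neighbours overlapped, with Fgl2 above Ebi3 in 10 of 12 libraries. Il10 followed at 8.25 ± 5.003 CPM per kilobase, below Ebi3 in 11 of 12 libraries, and Areg at 1.36 ± 1.40 CPM per kilobase, below Il10 in 12 of 12 libraries. Areg averaged 2.42 CPM per kilobase in male knockout and 2.12 in male floxed cells, and 0.386 in female knockout and 0.529 in female floxed cells. The level of the minus-strand genes is not placed in this order, since minus-strand genes had few counts throughout.

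**Figure D1:**
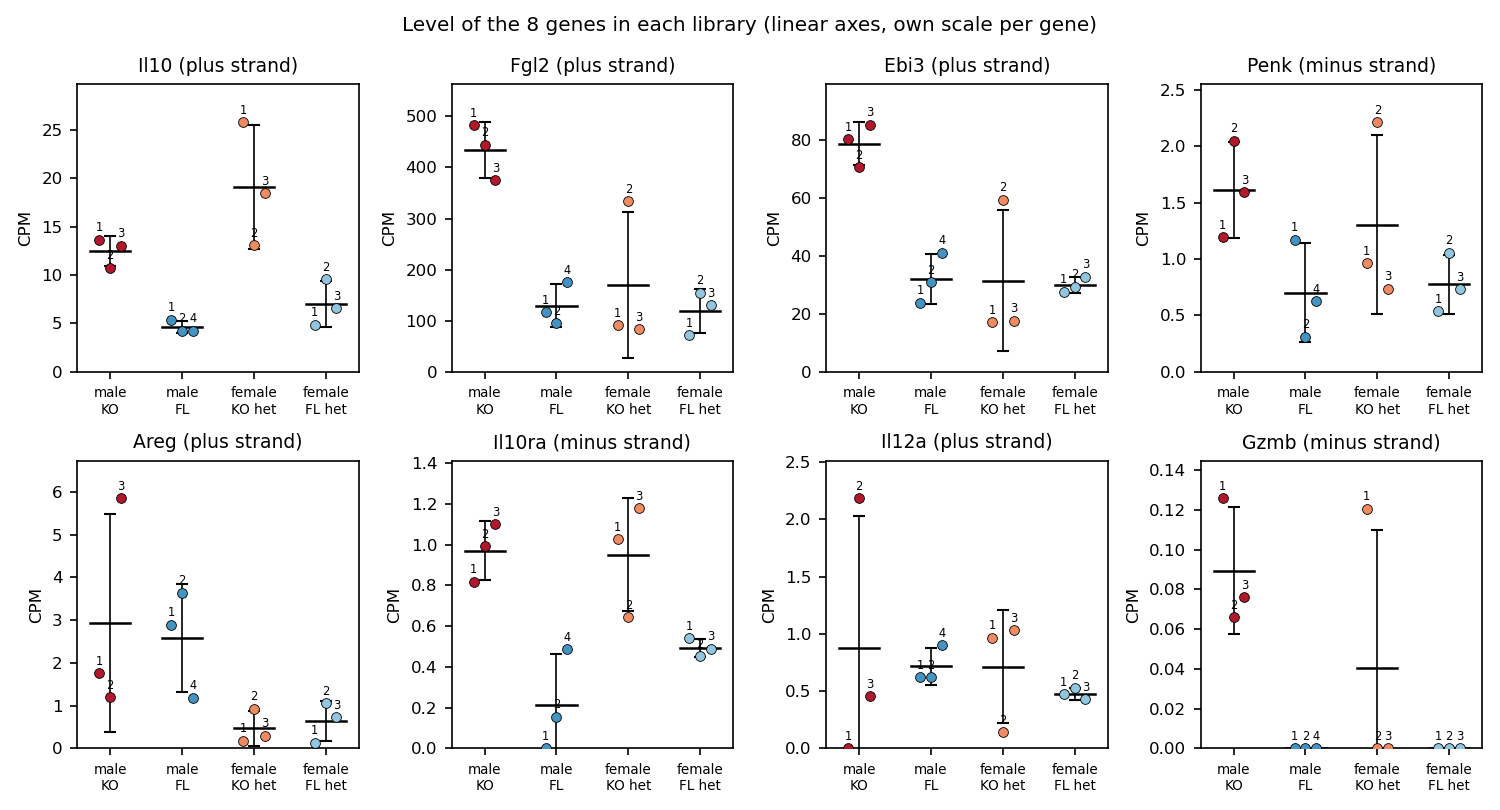
Level of each of the 8 genes in CPM (linear axis with its own scale per gene), 1 point per library with its replicate number, and a bar and whiskers for the mean and SD of 3 libraries. Knockout (KO) points of Il10 lie above floxed (FL) points in both sexes, while those of Fgl2 and Ebi3 do so in males, and in females only library 2 lies above the floxed points.

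Il10 was the only one of the 8 genes to pass the threshold, an adjusted p of 0.05, in any comparison by the main test. In males it was at 13.6, 10.8 and 13.0 CPM in knockout libraries 1, 2 and 3, against 5.38, 4.27 and 4.24 CPM in floxed libraries 1, 2 and 4. All 3 male knockout values lay above all 3 floxed values, by a clear gap. In heterozygous females it was at 25.8, 13.1 and 18.4 CPM in knockout libraries 1, 2 and 3, against 4.86, 9.59 and 6.55 CPM in floxed libraries 1, 2 and 3. The female groups did not overlap either, though both were more spread than in males. The highest Il10 values, in female knockout libraries 1 and 3, stood beside the highest mitochondrial shares, and the part of RNA quality in them was not tested. Among all tested genes, every knockout value was above every floxed value in 8.20% in males, 15.3% in females and 3.97% in both, and below in 6.13% in males and 9.70% in females.

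The mean of the male and female contrasts was a log2 fold change of 1.44 (SE 0.21, 95% interval 0.97 to 1.91) for Il10, a 2.71-fold higher level in knockout, with an adjusted p of 0.00808 by edgeR's quasi-likelihood test. This comparison called 411 of 12411 genes, 3.31% of those tested, with 2.68% higher and 0.637% lower. In males alone the log2 fold change was 1.43 (SE 0.30, 95% interval 0.76 to 2.10, edgeR adjusted p = 0.120), and in females 1.45 (SE 0.30, 95% interval 0.78 to 2.12, edgeR adjusted p = 0.0751). Neither passed the threshold by edgeR, while DESeq2 called both, with adjusted p values of 0.00143 in males and 0.000442 in females. By edgeR these comparisons called 0.0242% of genes in males, all higher, and 0.201% in females, 0.185% higher and 0.0161% lower. The female minus the male effect was 0.02 (SE 0.43, edgeR adjusted p = 0.996), with a 95% interval of -0.93 to 0.98. Over both sexes the adjusted p ran from 3.02e-08 to 0.0878 over 22 alternatives, 20 of which kept the call. The highest, with a log2 fold change of 1.16 (SE 0.22), came without female knockout libraries 1 and 3, where female knockout is represented by library 2 alone, assumed to vary like the other groups. Without library 2 instead, Il10 was called in females, at 1.67 (edgeR adjusted p = 0.0022), and over both sexes, at 1.56 (edgeR adjusted p = 0.00149). That fit called 3089 genes in females and 2940 over both sexes, against 25 and 411 in the main fit. Besides the fit without female knockout libraries 1 and 3, the call over both sexes was lost with the replicate number as a block.

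The genes whose pattern over the 12 libraries was most like that of Il10 were Dnah7a, Il1rl1, Ccr2 and Myo3b. Likeness was the mean absolute difference of the log2(CPM + 0.5) levels after each gene was centred on its own mean. It was 0.18 for Dnah7a (a dynein heavy chain gene on the minus strand), 0.25 for Il1rl1 (the IL-33 receptor), 0.26 for Ccr2 (a chemokine receptor) and 0.26 for Myo3b (an unconventional myosin). Il10 itself deviated from its mean by 0.69 on average. Among the 8 genes, the closest to Il10 was Il10ra at 0.44, with counts too low to rank it, and Fgl2 and Ebi3 were far off at 0.81 and 0.82.

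In males, Fgl2 had higher values in every knockout library than in any floxed library. It was at 483, 444 and 375 CPM in knockout libraries 1, 2 and 3, against 117, 94.6 and 176 CPM in floxed libraries 1, 2 and 4. The lowest knockout value was thus above the highest floxed value, yet the adjusted p missed the threshold. The log2 fold change was 1.75 (SE 0.52, 95% interval 0.60 to 2.90, edgeR adjusted p = 0.301). In females Fgl2 was at 91.4, 334 and 83.8 CPM in knockout libraries 1, 2 and 3, against 71.2, 155 and 130 CPM in floxed libraries 1, 2 and 3. Knockout library 2 stood well above the floxed range, and libraries 1 and 3 lay inside it. The female log2 fold change was 0.52 (SE 0.50, 95% interval -0.60 to 1.63, edgeR adjusted p = 0.563).

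Ebi3 had the same shape. In males it was at 80.2, 70.4 and 85.2 CPM in knockout libraries 1, 2 and 3, against 23.9, 31.0 and 41.0 CPM in floxed libraries 1, 2 and 4. The groups did not overlap, with a log2 fold change of 1.30 (SE 0.43, 95% interval 0.34 to 2.25, edgeR adjusted p = 0.372). In females it was at 17.2, 59.3 and 17.6 CPM in knockout libraries 1, 2 and 3, against 27.6, 29.3 and 32.7 CPM in floxed libraries 1, 2 and 3. Here the knockout libraries fell on both sides of the floxed ones, library 2 above all of them and libraries 1 and 3 below all of them. The female log2 fold change was 0.07 (SE 0.42, 95% interval -0.87 to 1.01, edgeR adjusted p = 0.939). Ebi3 shares 270 of its 1154 exonic bases with Gm16712 of the opposite strand (GENCODE release M21). Gm16712 had no more than 27 counts in any library, but low counts on the minus strand do not give expression. Its part in the Ebi3 counts was not tested.

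Averaged over the sexes, the Fgl2 difference was 1.13 on the log2 scale (SE 0.36, edgeR adjusted p = 0.118) and Ebi3 0.68 (SE 0.30, edgeR adjusted p = 0.237). The averaged Fgl2 difference passed the threshold in 3 of 22 alternatives. The difference of the female and male effects was -1.23 for each (SE 0.71 for Fgl2 and 0.60 for Ebi3, edgeR adjusted p = 0.892 for both). Males and heterozygous females were thus not shown to differ, and sex and zygosity cannot be told apart here. The test of this difference called 0 of 12411 genes by edgeR, where 339 had an unadjusted p under 0.05, 0 by DESeq2 and 1040 by limma-voom. Leaving out female knockout library 2 changed these results. The difference between the sexes became -2.18 for Fgl2 (edgeR adjusted p = 0.0149) and -2.08 for Ebi3 (edgeR adjusted p = 0.00575). In that fit 1108 genes were called in the difference, 3089 in females and 2940 over both sexes. The main fit had called 0, 25 and 411. The female knockout side of the fit without library 2 rested on libraries 1 and 3, which stood apart. Ebi3 was then called lower in females, at -0.77 (edgeR adjusted p = 0.0288), and higher in males, at 1.31 (edgeR adjusted p = 0.0299), while Fgl2 over both sexes passed at 0.66 (edgeR adjusted p = 0.0497). Leaving out libraries 1 and 3 instead gave female log2 fold changes of 1.49 for Fgl2 (edgeR adjusted p = 1) and 0.99 for Ebi3 (edgeR adjusted p = 0.941), and Ebi3 over both sexes passed at 1.14 (edgeR adjusted p = 0.0437). By limma-voom with quality weights, both genes were called higher in males, at 1.92 for Fgl2 (limma adjusted p = 0.0225) and 1.42 for Ebi3 (limma adjusted p = 0.0252), and DESeq2 called Fgl2 in males (DESeq2 adjusted p = 0.0439). The female direction of both genes thus depended on which knockout library was kept.

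**Figure D2:**
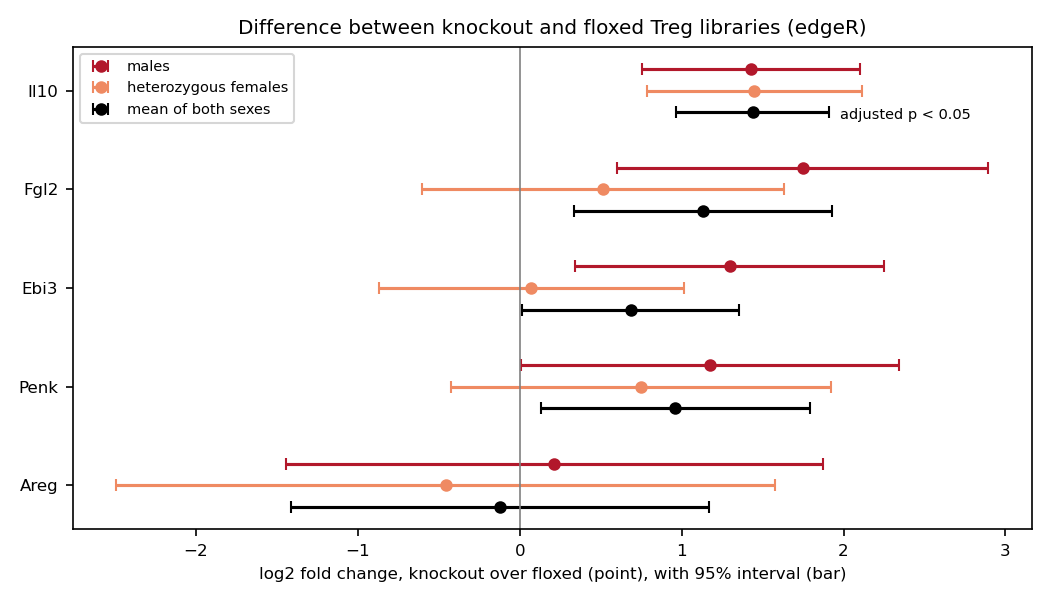
Log2 fold change of knockout over floxed (horizontal axis) for the 5 genes with counts high enough to judge, with 95% intervals from edgeR, in males, in heterozygous females and as the mean of both. The 3 intervals of Il10 exclude 0 and the mean passes the adjusted threshold, while the female intervals of Fgl2, Ebi3, Penk and Areg include 0.

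Fgl2 and Ebi3 varied together over the libraries more closely than any other pair of the 7 tested genes. After centring, their log2 levels differed by 0.29 on average, and the next closest pair, Il10 and Il10ra, by 0.44. The ratio of Fgl2 to Ebi3 per kilobase stayed between 1.34 and 1.92 in the 6 knockout libraries, and between 0.785 and 1.61 in the 6 floxed libraries. Il10 did not follow them in females. Female knockout library 1 held the highest Il10 of all libraries together with the lowest Ebi3, whereas library 2 held the lowest Il10 and the highest Fgl2 and Ebi3 of the 3 female knockout libraries. Library 2 was also the one with the highest Foxp3 of those 3. The shape was not particular to the pair. Nt5e was at 864 CPM or more in male knockout and 680 CPM or less in male floxed libraries. Il12rb1 was at 121.9 CPM or more and 102.4 CPM or less. In females, the knockout values of both genes fell on both sides of the floxed range, as for Ebi3. The pair was singled out after its values were seen, and it was not compared with genes outside the members. Likeness is a description of these 12 libraries with no test.

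**Figure D3:**
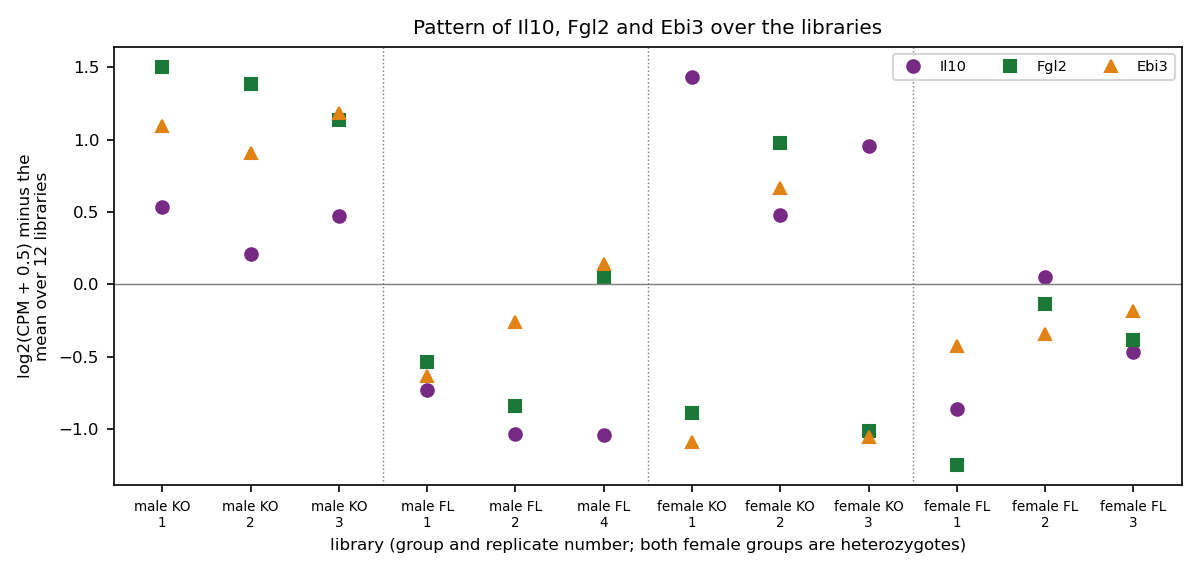
Log2 level of Il10, Fgl2 and Ebi3 in each library relative to the gene's mean over the 12 libraries (vertical axis), ordered by group and replicate number. Il10 lies above 0 in all 6 knockout libraries, while Fgl2 and Ebi3 lie between -0.89 and -1.09 in female knockout libraries 1 and 3.

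Because Fgl2 and Ebi3 varied together, the 250 bases before their transcription starts are shown, from RefSeq on build GRCm38.p6, which is not the build of the counts. The promoter table held 5 of the 8 genes. Capitals mark matches on either strand to an AP-1 motif (TGANTCA), a STAT motif (TTCNNNGAA), a RUNX motif (TGTGGT), a forkhead motif (TGTTTAC) or a loose kappa B motif.
Fgl2, chr5:21372423-21372672, plus strand: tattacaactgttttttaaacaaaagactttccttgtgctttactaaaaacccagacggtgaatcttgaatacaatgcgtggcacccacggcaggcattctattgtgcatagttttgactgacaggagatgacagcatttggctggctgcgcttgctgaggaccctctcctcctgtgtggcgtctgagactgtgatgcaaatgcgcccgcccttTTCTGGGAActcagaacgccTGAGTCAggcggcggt
Ebi3, chr17:55952373-55952622, plus strand: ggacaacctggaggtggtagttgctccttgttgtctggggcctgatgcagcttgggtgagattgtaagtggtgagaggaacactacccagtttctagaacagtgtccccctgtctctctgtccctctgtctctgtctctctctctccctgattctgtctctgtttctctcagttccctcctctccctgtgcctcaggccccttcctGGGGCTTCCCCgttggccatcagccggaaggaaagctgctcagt
The Fgl2 stretch held 1 AP-1 match, which begins 16 bases before the start, and 1 STAT match, which begins 36 bases before it. Among 32851 promoter windows of the same length, 6.75% held the AP-1 letters and 7.02% the STAT letters. The Ebi3 stretch held 2 kappa B matches that overlap each other and begin 44 and 43 bases before the start, and 45.8% of windows held this loose motif. RUNX and forkhead letters, found in 14.0% and 3.17% of windows, were in neither stretch. No motif matched in both, and a match is a description of letters, not of binding.

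Penk, on the minus strand, was at 1.195, 2.05 and 1.60 CPM in male knockout libraries 1, 2 and 3, against 1.17, 0.310 and 0.626 CPM in male floxed libraries 1, 2 and 4. The male groups did not overlap, by a narrow margin. In females it was at 0.966, 2.22 and 0.738 CPM in knockout libraries 1, 2 and 3, against 0.540, 1.06 and 0.735 CPM in floxed libraries 1, 2 and 3, and only library 2 stood above the floxed range. The log2 fold change was 1.18 (SE 0.53, 95% interval 0.01 to 2.35, edgeR adjusted p = 0.611) in males and 0.75 (SE 0.53, 95% interval -0.43 to 1.92, edgeR adjusted p = 0.426) in females. The mean of the sexes was 0.96 (SE 0.37, edgeR adjusted p = 0.190), and it passed the threshold under none of the 20 alternatives in which it was tested. The female value rested on library 2, being 0.15 without it (edgeR adjusted p = 0.868) and 1.51 without libraries 1 and 3 (edgeR adjusted p = 1), and was 0.067 by limma-voom. With 4 to 42 counts per library, the male interval of Penk ran from near no difference to 2.35 on the log2 scale.

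Penk shares 233 of its exonic bases with A830012C17Rik, an unnamed gene model on the plus strand that held more reads than Penk itself. A830012C17Rik had 708, 864 and 1690 counts in male knockout libraries 1, 2 and 3, against 375, 231 and 378 counts in male floxed libraries 1, 2 and 4. In females it had 337, 644 and 244 counts in knockout libraries 1, 2 and 3, against 275, 273 and 284 counts in floxed libraries 1, 2 and 3. As for Penk, Fgl2 and Ebi3, all male knockout values were above the floxed ones, and female knockout library 2 was the highest of the females. Its log2 fold change was 1.24 (SE 0.33, edgeR adjusted p = 0.245) in males, 0.58 (SE 0.33, edgeR adjusted p = 0.340) in females and 0.91 (SE 0.24, edgeR adjusted p = 0.0652) over both. Without female knockout library 2 its female value was 0.03 (edgeR adjusted p = 0.944), and it was called in males, at 1.25 (edgeR adjusted p = 0.0359), over both sexes, at 0.64 (edgeR adjusted p = 0.0114), and in the difference between the sexes, at -1.22 (edgeR adjusted p = 0.0304). That fit called 2940 genes over both sexes and 1108 in the difference. Without libraries 1 and 3 its female value was 1.29 (edgeR adjusted p = 0.781), and it was called over both, at 1.26 (edgeR adjusted p = 0.0304). It was looked at after its values were seen, and whether its reads come from Penk transcripts was not tested.

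Areg did not separate the genotypes in either sex. It was at 1.76, 1.19 and 5.85 CPM in male knockout libraries 1, 2 and 3, against 2.90, 3.65 and 1.18 CPM in male floxed libraries 1, 2 and 4. In heterozygous females it was at 0.181, 0.929 and 0.295 CPM in knockout libraries 1, 2 and 3, against 0.135, 1.06 and 0.735 CPM in floxed libraries 1, 2 and 3. Genotypes overlapped in each sex, while every male library lay above every female library. That difference was not tested, and sex and zygosity cannot be told apart in it. The log2 fold change was 0.21 (SE 0.75, 95% interval -1.45 to 1.87, edgeR adjusted p = 0.999) in males, -0.46 (SE 0.92, 95% interval -2.49 to 1.58, edgeR adjusted p = 0.792) in females and -0.12 (SE 0.58, edgeR adjusted p = 0.917) over both. The male sign was not stable, becoming -0.78 without male knockout library 3, -0.13 without male floxed library 4 and -0.53 by limma-voom on all libraries.

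Il10ra, the ligand-binding chain of the IL-10 receptor, had 13, 15 and 29 counts in male knockout libraries 1, 2 and 3, against 0, 2 and 7 counts in male floxed libraries 1, 2 and 4. In females it had 17, 9 and 16 counts in knockout libraries 1, 2 and 3, against 8, 6 and 8 counts in floxed libraries 1, 2 and 3. The counts did not overlap between the genotypes in either sex, but they are few and the gene lies on the minus strand. Over both sexes its log2 fold change stood at 1.54 (SE 0.46, edgeR adjusted p = 0.0985). It is given as a value only, since the gene was classed as too low to judge. The libraries under 10 counts were the floxed ones and female knockout library 2. An alternative low-count rule did not class Il10ra as too low, and left 2 of the 8 genes in that class. Il10ra passed the threshold over both sexes in 5 of the 20 alternatives in which it was tested.

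Il12a, the alpha subunit shared by IL-12 and IL-35, had 0, 33 and 12 counts in male knockout libraries 1, 2 and 3, against 9, 8 and 13 counts in male floxed libraries 1, 2 and 4. In females it had 16, 2 and 14 counts in knockout libraries 1, 2 and 3, against 7, 7 and 7 counts in floxed libraries 1, 2 and 3. The genotypes overlapped in both sexes, and no fold change is given. Gzmb had 2, 1 and 2 counts in male knockout libraries 1, 2 and 3 and 2, 0 and 0 counts in female knockout libraries 1, 2 and 3, against 0 counts in all 6 floxed libraries. A count of 0 allows up to 3 counts, or 0.184 to 0.233 CPM in these floxed libraries. With at most 2 counts, every knockout value was bound to lie under its own library's limit as well. Such limits do not compare the genotypes, and Gzmb failed the filter, so a difference was not tested. These limits cover counting error only.

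No other gene of the IL-10 pathway was called beside Il10. Of 8 genes listed for the receptor and its signalling, apart from Il10ra, 6 were tested and none passed the threshold in any comparison. The 2 untested genes lie on the minus strand. The 6 include Il4ra, a chain of the IL-4 receptor and not of the IL-10 receptor, at -0.22 (SE 0.19, edgeR adjusted p = 0.525) over both sexes. The median log2 fold change of the 6 over both sexes was -0.25, with 1 of the 6 above 0, beside -0.02 for all tested genes. Il10rb, the shared receptor chain, was at 0.01 (SE 0.13, edgeR adjusted p = 0.977), and the minus-strand genes Jak1 and Stat3 at -1.11 (SE 0.34, edgeR adjusted p = 0.105) and -0.90 (SE 0.37, edgeR adjusted p = 0.209).

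Among 15 transcription factors that act on Il10, 9 were tested, and 3 rose and none fell over both sexes, beside the 3.31% of all genes called. Irf4, a factor of effector Treg cells, averaged 312 ± 12.4 CPM in male knockout and 210 ± 41.5 CPM in male floxed cells (SD, n = 3 each), and 324 ± 20.95 CPM in female knockout and 219 ± 7.86 CPM in female floxed cells (SD, n = 3 each). Batf, its partner at AP-1 sites, rose by 0.52 on the log2 scale (SE 0.11, edgeR adjusted p = 0.0253), and Irf4 by 0.57 (SE 0.10, edgeR adjusted p = 0.0130). Bhlhe40, known as a repressor of Il10 in T cells, also rose, by 0.52 (SE 0.09, edgeR adjusted p = 0.0136). Their calls were lost in 10 alternatives for Batf, 3 for Irf4 and 3 for Bhlhe40, of 22 each, with adjusted p values of up to 0.144, 0.111 and 0.144 by edgeR, each without female knockout libraries 1 and 3. Maf and Prdm1, both activators of Il10, failed the filter. All 6 untested factors, these included, lie on the minus strand, so their low counts do not give their expression.

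No tested partner gene of Ebi3, Il12a, Areg or Penk was called, and many could not be tested. Of 9 genes of the IL-12 and IL-27 family and its receptors, 5 were tested and none was called. The 4 untested genes, Il27 among them, lie on the minus strand, so their low counts do not give their expression. Stat4, which carries the IL-12 signal, was at 0.35 (SE 0.10, edgeR adjusted p = 0.0860) over both sexes. Il12b, which can pair with Il12a, had 16 to 204 counts in male knockout and 3 to 114 in male floxed libraries, and 2 to 306 in female knockout and 0 to 2 in female floxed libraries (edgeR adjusted p = 0.181 over both sexes). Of 12 genes of the epidermal growth factor family, its sheddases and receptors, 4 were tested and none was called. Of the 8 untested, 5 lie on the minus strand. Adam10, a sheddase, was at -0.25 (SE 0.23, edgeR adjusted p = 0.548) and Egfr at 0.48 (SE 0.60, edgeR adjusted p = 0.666). Opioid peptide genes had 4 of 12 tested and none called, and 4 of the 8 untested lie on the minus strand. Pcsk1, a protease that cleaves proenkephalin, was at 1.44 (SE 0.36, edgeR adjusted p = 0.0578), the nearest to the threshold in these lists, and Ece1, a metalloprotease, at -0.24 (SE 0.18, edgeR adjusted p = 0.463).

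Most listed granule and exocytosis genes could be tested, although Gzmb, Gzma, Gzmc and Gzmk could not. Of 15, 11 were tested, 1 rose and none fell over both sexes, where 2.68% of all tested genes rose and 0.637% fell. Their median log2 fold change was 0.29, beside -0.02 for all tested genes. The one that rose was Cst7, which encodes cystatin F, an inhibitor of granule cathepsins, at 1.04 (SE 0.18, edgeR adjusted p = 0.0154), a call lost in 6 of 22 alternatives (highest edgeR adjusted p 0.102, without female knockout libraries 1 and 3). Prf1, which encodes perforin, was at -0.01 (SE 0.11, edgeR adjusted p = 0.966). Gzma, Gzmc, Gzmk and Stx11 failed the filter, and all lie on the minus strand, so their low counts do not give their expression.

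Of 13 other suppressive effector genes of Treg cells, 10 were tested, 4 rose, none fell and 6 were not called over both sexes, where 2.68% of all tested genes rose and 0.637% fell. Their median log2 fold change was 0.53, beside -0.02 for all tested genes, in a list chosen with earlier results of these data known. Icos, a costimulatory receptor, rose by 1.04 (SE 0.14, edgeR adjusted p = 0.00631), and Lgals1, which encodes the secreted lectin galectin-1, by 0.75 (SE 0.14, edgeR adjusted p = 0.0184). Lgals1 averaged 380 ± 27.6 CPM in male knockout and 220 ± 53.3 CPM in male floxed cells (SD, n = 3 each), and 355 ± 85.9 CPM in female knockout and 216 ± 21.5 CPM in female floxed cells (SD, n = 3 each). Entpd1, the ectonucleotidase CD39, rose by 0.67 (SE 0.14, edgeR adjusted p = 0.0335), and Ctla4, an inhibitory receptor, by 0.50 (SE 0.12, edgeR adjusted p = 0.0457). Of 22 alternatives, 15 lost the call of Ctla4, 11 that of Entpd1, 7 that of Lgals1 and none that of Icos, with adjusted p values of up to 0.230, 0.280, 0.150 and 0.0322 by edgeR. For Ctla4, Entpd1 and Lgals1 the highest came without female knockout libraries 1 and 3, where Icos was at 0.84 (edgeR adjusted p = 0.0304).

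Most other T cell cytokines could not be read. Of 18, 4 were tested and none was called over both sexes. The other 14 had at most 6 counts in any library, and 11 of them lie on the minus strand. Ifng, which encodes interferon gamma, averaged 2.07 ± 0.231 CPM in male knockout and 1.146 ± 0.277 CPM in male floxed cells (SD, n = 3 each), and 2.05 ± 0.514 CPM in female knockout and 0.963 ± 0.608 CPM in female floxed cells (SD, n = 3 each). It did not pass over both sexes, at 0.98 on the log2 scale (SE 0.28, edgeR adjusted p = 0.0882). Tgfb1, which encodes the suppressive cytokine TGF-beta 1, was at -0.82 (SE 0.46, edgeR adjusted p = 0.339), with 245 to 9275 counts per library.

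Fgl2, Ebi3 and Il10 are also made by macrophages and dendritic cells, whose markers were present in every library. The 20 markers summed to 257 to 1762 CPM in male knockout and 108 to 1623 CPM in male floxed libraries, and to 848 to 1685 CPM in female knockout and 298 to 1252 CPM in female floxed libraries. None of the 13 tested markers was called, their median log2 fold change over both sexes was 0.74, and all 13 were above 0. Adgre1, Csf1r and Mrc1, macrophage genes on the plus strand, were detected in every library. Between 2 and 6 of the 20 were at 0 in any one library, Cd209a in all of them. The 7 untested markers, among them Cd68, Fcgr1, C1qa, C1qc and Cd209a, had at most 14 counts in any library. All 7 lie on the minus strand, so their low counts do not give their expression. The highest Fgl2, in male knockout library 1, stood beside a marker sum of 257 CPM, and the highest marker sum, in male knockout library 2, stood beside a similar Fgl2 level. Male floxed library 4 had a marker sum of 1623 CPM and the highest Fgl2 and Ebi3 of the 3 male floxed libraries. Without it and male knockout library 2, the male log2 fold changes were 2.03 (SE 0.66) for Fgl2, 1.60 (SE 0.55) for Ebi3 and 1.47 (SE 0.40) for Il10, against 1.75, 1.30 and 1.43 with them, and the part of these cells in the male values was not tested. In females the sums of the genotypes overlapped, with a higher median in knockout (1063 CPM) than in floxed libraries (642.6 CPM), and their part in the female values was not tested. NK and CD8 T cell markers summed to 128 to 188 CPM in male knockout and 128 to 215.5 CPM in male floxed libraries. In females they summed to 192 to 340 CPM in knockout and 183 to 244 CPM in floxed libraries. This list holds Prf1 and Gzma themselves, and most of each sum came from Cd8a and Cd8b1. The sums therefore do not single out NK cells. Klrb1c was at 0 throughout, but it lies on the minus strand. In bulk RNA, more cells that express a gene and more RNA per cell cannot be told apart.

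**Figure D4:**
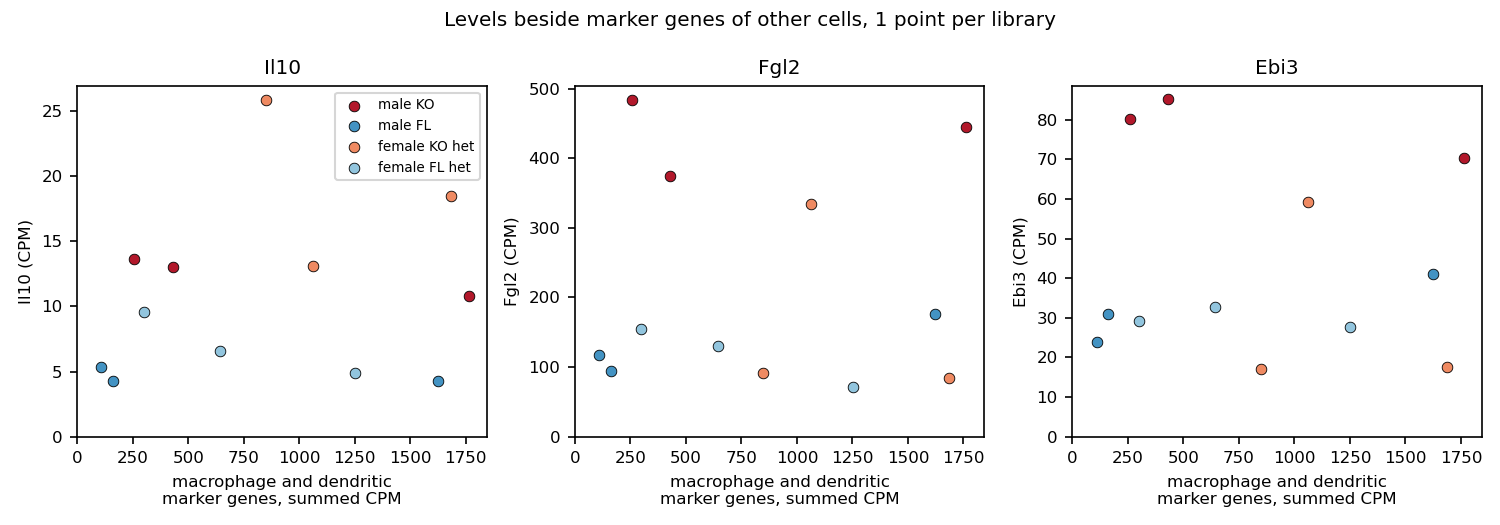
Level of Il10, Fgl2 and Ebi3 (vertical axes, CPM) against the summed CPM of 20 macrophage and dendritic cell markers (horizontal axes), 1 point per library. Male knockout libraries had marker sums of 257, 430 and 1762 CPM, and the male floxed library with a sum of 1623 CPM had the highest Fgl2 and Ebi3 of its group.

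**Figure D5:**
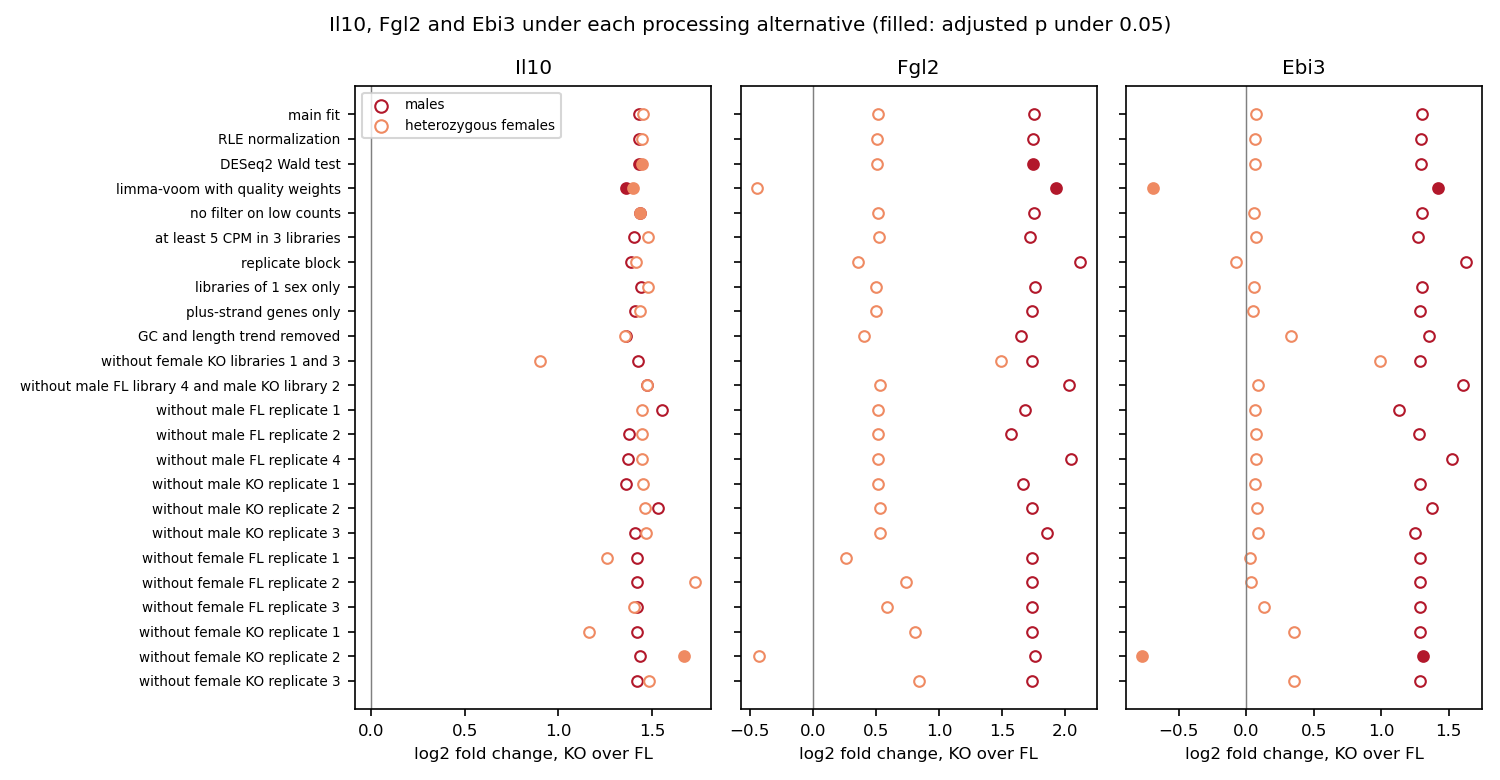
Log2 fold change of knockout over floxed (horizontal axes) for Il10, Fgl2 and Ebi3 in males and heterozygous females, as reported and under each processing alternative, with filled points where the adjusted p was under 0.05. Il10 stays between 0.90 and 1.73 in both sexes, Fgl2 and Ebi3 stay above 1.1 in males, and both fall below 0 in females without knockout library 2 and by limma-voom.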

How the data were processed

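The authors deposited whole read counts for each gene symbol, not normalized. CASAVA, STAR 2.5.2b, STAR 2.3.0e, HTSeq 0.6.1p1 and build mm9 are named in the submitters' processing notes without their roles. Libraries were made with SMARTer Stranded RNA-Seq kits from TRIzol lysates, per the labels' protocols. The annotation and strand setting are not given in the sources used here. The HTSeq summary entries were left out. Reads outside annotated features were 44.3 to 46.9% of a library and reads in genes 29.5 to 35.7%.

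Counts were analysed with edgeR 4.0.16 in R 4.3.3 (filterByExpr on the 4 groups, TMM scaling, a robust quasi-likelihood fit with 1 mean per group over all 12 libraries, Benjamini-Hochberg adjustment over 12411 genes, threshold 0.05). Contrasts were knockout minus floxed in males, in females, the mean of both and their difference. Alternatives used DESeq2 1.42.0, limma 3.58.1 and other filters, scalings and sets of libraries. The steps were tested on simulated data. Strand, exonic length and GC content came from GENCODE release M21 by symbol (54510 of 55453 matched). Figures were drawn with matplotlib 3.10.9.

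The members and lists were chosen with earlier results of these data known. All 8 members are named. List genes were named if called in any comparison (up to 4 per list), otherwise the 2 with the smallest p; others are named for context after their values were seen. Like genes were the 4 closest with a mean log2 CPM of at least 1 and no clone or model name.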

Additional observations from a re-analysis of the deposited data

How the results depend on the processing

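Il10 kept its direction in every male, female and pooled alternative, and its pooled call except without female knockout libraries 1 and 3 and with the replicate block. The numbers shared by groups did not pair the libraries: same-numbered deviations correlated at 0.539 and -0.702 in males and 0.280, 0.340 and -0.332 in females. With the replicate number as a block, the adjusted p of Il10 over both sexes was 0.0523 (log2 fold change 1.40), 0 of the members were called, and 209 genes were called over both sexes and 0 in each sex alone. The cause of the changes below was not tested.

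Genes called in the 3 comparisons, male knockout against floxed, female knockout against floxed and knockout against floxed over both sexes (3, 25 and 411), became 235, 706 and 1129 by DESeq2, and 177, 5437 and 4630 by limma-voom with quality weights, which also called 1040 in the difference between the sexes. They were 26 and 94 in males and females without a filter, 50 in females at 5 CPM or more, and 0 in each sex from libraries of that sex only. Males had 0 on plus-strand genes only, 0 with the GC and length trend removed (9 in females) and 0 when floxed library 4 and knockout library 2 of males were left out (63 in females). Without female knockout libraries 1 and 3 they were 11, 0 and 44. Leaving out 1 library in turn gave 0 to 35 in males, 0 to 3089 in females, 98 to 2940 over both and 0 to 1108 in the difference, the highest in females, over both and in the difference without female knockout library 2.

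Members called, of the 5 judged, were 2, 1 and 2 by DESeq2 in males, in females and over both, 3, 2 and 2 by limma-voom with 2 in the difference, and 1 in females without a filter. They were 0 to 1, 0 to 2, 1 to 2 and 0 to 2 in males, in females, over both and in the difference when 1 library was left out.

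Some signs turned. By limma-voom, Areg in males was -0.53, Ebi3 in females -0.69 and Fgl2 in females -0.44. With the replicate block, Areg was -0.60 in males and 0.24 in the difference, and Ebi3 -0.080 in females. Without female knockout libraries 1 and 3, Areg was 0.54 in females, 0.37 over both and 0.33 in the difference, and the difference was -0.52 for Il10, 0.34 for Penk and 0.059 for A830012C17Rik. The Il10 difference was -0.0051 with the GC and length trend removed. Leaving out 1 library gave -0.78 to 0.59 for Areg in males, -1.40 to 0.056 in females, -0.61 to 0.14 over both and -1.62 to 0.34 in the difference, -0.77 to 0.35 for Ebi3 and -0.43 to 0.84 for Fgl2 in females, and -0.26 to 0.31 for the Il10 difference. Counts of 4 to 42 for Penk and 2 to 154 for Areg limit what could be detected.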
